A study of Homo sapiens with 4 samples.

Results

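The 55 genes described here encode proteins of the spliceosome and the proteins that steer it. The rule lists them by name, although earlier results of these data were known when the list was made. They are 14 factors of the U2 small nuclear ribonucleoprotein (snRNP) and 3′ splice site recognition and 13 SR and TRA2 proteins. A further 11 are hnRNP proteins with PTBP1 among them, and 2 are SR-related matrix proteins. The rest are 6 SR protein kinases, 6 U1, U5 and LUC7-like proteins and 3 RBM regulators. The count tables listed 60279 genes, of which 14269 had a mean of at least 1 CPM (reads of a gene relative to all gene reads of its library, on the usual scale) over the libraries and were compared. All 55 genes were among them.

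The RNA of SUM159 cells, an established line from a triple-negative breast cancer, was sequenced in 4 libraries, 1 per condition. The conditions were untreated, palbociclib (a CDK4 and CDK6 inhibitor that holds cells in G1), indisulam, and the combination of both drugs. Indisulam is a molecular glue: it ties RBM39, a splicing factor, to DCAF15, part of a ubiquitin ligase, and the RBM39 protein is then destroyed. The sample labels give 0.5 µM palbociclib and 2 µM indisulam for 10 days, whereas the text on the series gives 2 µM and 3 µM for 16 h in technical duplicates. The paper describes RNA sequencing of SUM159 cells at both settings, the 10-day doses for senescence signatures and the 16 h doses for splicing errors. The labels hold the doses of the former, but dose and duration were left undetermined here. All cells were grown in the same medium with serum, insulin and hydrocortisone, and the model is 1 cell line. With 1 library per condition no difference has a replicate check and no p-value was computed. Where the text gives an interval, it is a 95% interval from Poisson counting error only, and it does not cover variation between cultures or library preparations.

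Introns are removed by the spliceosome, in which the U1 snRNP marks the 5′ splice site, U2AF and SF1 mark the 3′ end of the intron, and the U2 snRNP with its SF3A and SF3B complexes takes over the branch point before the U5 snRNP joins. SR proteins bind exons and mostly favor their inclusion, hnRNP proteins often act against it, and the SRPK and CLK kinases phosphorylate the SR proteins and thereby set where these reside and act. Many of these genes control their own level through exons or introns that route the transcript to nonsense-mediated decay. In the annotation used (GENCODE release 44), 44 of the 55 genes (80.0%) had at least 1 transcript marked as a decay target, against 47.5% of the 12542 compared protein-coding genes, and 47 (85.5%) had a retained-intron transcript, against 61.0%. The values below count all reads of a gene and cannot tell a productive transcript from one that is destined for decay.

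Gene reads numbered from 12555908 to 16712174 per library, so that 3 reads, the floor used here, corresponded to 0.180 to 0.239 CPM. The 55 genes took 1.028% of gene reads without treatment, 0.9158% under palbociclib, 1.177% under indisulam and 1.009% under both. Reads at more than 1 genomic place were between 6.456% and 6.838% of each library. The mesenchymal markers VIM (2642 to 4598 CPM) and CD44 (706.1 to 883 CPM) and the keratins KRT8 and KRT18 (162.3 to 574.6 CPM) were present. The hormone receptor genes ESR1 (at most 1.114 CPM) and PGR (at most 0.2089 CPM) were near the floor, and ERBB2 was between 109.6 and 142.7 CPM. Of the markers of other cell types, CD3E had 0 reads in each library, which allows a level of up to 0.239 CPM, ALB had at most 1 read, the leukocyte gene PTPRC had 11.14 to 17.47 CPM, and the endothelial gene PECAM1 had 40.89 CPM with palbociclib and 15.21 to 20.4 CPM in the other libraries. The part of other cell types in the differences below was not tested.

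Differences are log2 ratios of reads scaled to library totals, with a pseudocount of 1 scaled read. A gene is called where the ratio reaches the stated fold and its counting interval excludes a ratio of 1. Because the libraries form a layout of 2 drugs with and without each other, each drug has a pair of estimates that share no library: indisulam against untreated beside the combination against palbociclib, and palbociclib against untreated beside the combination against indisulam. The departure from additivity is what remains of the combination's log2 ratio to untreated once the ratios of both single drugs are taken away. The spread of that departure was taken as a robust standard deviation. For all compared genes with 100 CPM or more (34 of the 55) it corresponds to at most 0.28 in log2 for a single ratio. For genes of 20 to 100 CPM (20 of the 55) the value was 0.26, and for 5 to 20 CPM (1 of the 55, U2AF1) 0.37. This spread holds noise between libraries together with any interaction of the drugs. Many ratios below are smaller than these values even where their counting intervals exclude 0.

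The ratio of the highest to the lowest of the 4 libraries was between 1.06 (SF3B5) and 2.20 (RBM25) for the genes described here, with a median of 1.47. That ratio was not computed for other genes. Per kilobase of annotated exon, the mean level ran from 1.29 CPM for U2AF1 to 107 CPM for SF3B5, with HNRNPK at 103 CPM and HNRNPA1 at 91.9 CPM near the top. The U2AF1 value is too low by an unknown amount, because most of its exon sequence also occurs in a genomic copy. At 2-fold, 1 gene, RBM25, was called in indisulam against untreated, where 15.1% of all compared genes were called, and the same gene alone was called in the combination against untreated, where 23.5% were called. That second call depends on scaling. With TMM factors (trimmed means in place of totals) RBM25 was no longer called and CLK2 was called lower, at −1.04, and with upper-quartile factors neither was called. None of the 55 was called at 2-fold in palbociclib against untreated (10.8% of all genes), in the combination against palbociclib (16.9%) or in the combination against indisulam (8.19%). Among the 8037 genes with at least 20 CPM these shares were smaller, at 4.89%, 9.17% and 2.86%. There, 7.47% were called in indisulam against untreated and 14.3% in the combination against untreated. With 1 library per group no replicated test lies behind these counts.

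The typical member was slightly higher with indisulam and slightly lower with palbociclib. Indisulam against untreated had a median log2 ratio of 0.21 over the 55 genes, with 45 above 0 and 10 below, beside a median of 0.06 over all compared genes. The combination against palbociclib, which uses the other pair of libraries, had a median of 0.17, with 39 above 0 and 16 below, beside 0.07 over all genes. For palbociclib the medians were −0.12 against untreated (21 above 0, 34 below) and −0.23 for the combination against indisulam (13 above 0, 42 below), beside −0.02 and −0.01 over all genes. Against untreated, the combination had a median of −0.10, with 23 genes above 0 and 32 below, beside 0.05 over all genes. Among all compared genes, 54.6% were above 0 in indisulam against untreated and 54.9% in the combination against palbociclib. The share was 48.2% in palbociclib against untreated, 48.9% in the combination against indisulam and 52.9% in the combination against untreated. With TMM factors the median of the combination was −0.19 against untreated, beside −0.04 over all genes, and 0.07 against palbociclib, beside −0.03 over all genes. No error of a median over these genes could be had from single libraries.

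**Figure D1:**
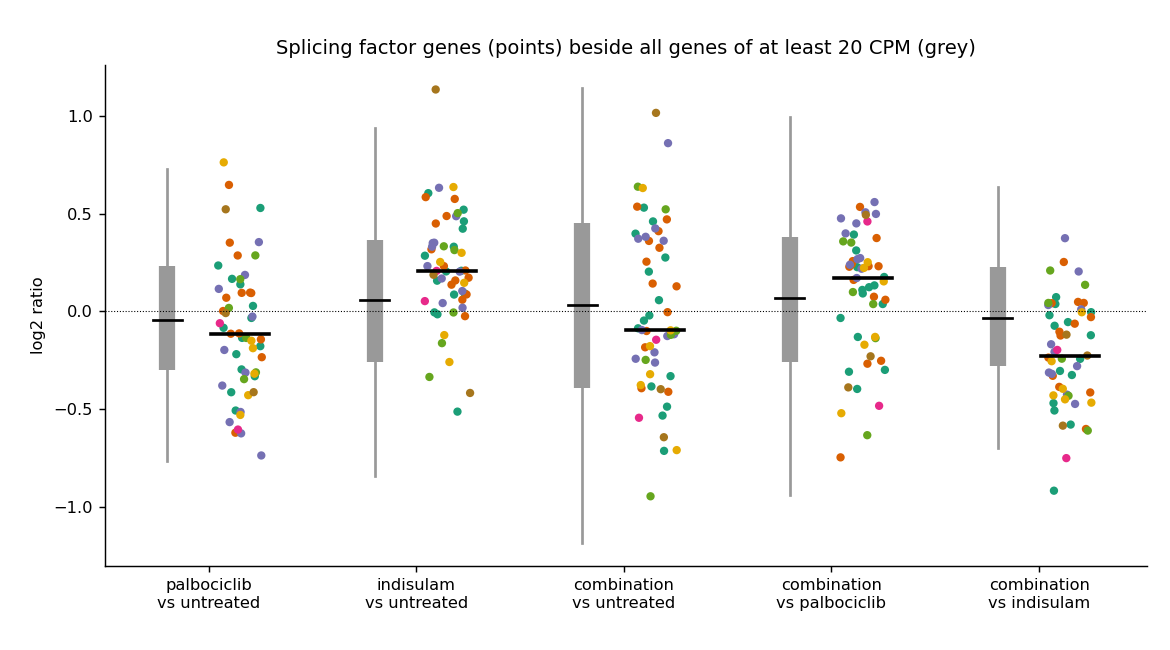
Each colored point is the log2 ratio (vertical axis) of 1 of the 55 genes in 1 of 5 comparisons (horizontal axis), the short black line beside them is their median, and the grey bar shows the middle 50% of the 8037 genes with at least 20 CPM, with its thin line from the 5th to the 95th percentile and its median in black. Points lie mostly above 0 for indisulam against untreated (45 of 55) and mostly below 0 for the combination against indisulam (42 of 55), and few points leave the range of the thin grey lines.

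With library totals, counting intervals lay above 0 in both indisulam comparisons for more of these genes than for genes at large. The intervals lay above 0 in both for 26 of the 55 (47.3%), beside 25.2% of all compared genes and 29.9% of those with at least 20 CPM, which have narrower intervals. With TMM factors the count was 17 (30.9%), beside 20.4% of all genes. The share of genes with at least 20 CPM was not computed with TMM factors, so no comparison at like expression can be made there. The intervals lay below 0 in both for 4 genes, SF3B3, CLK2, LUC7L3 and RBM10, beside 18.4% of all genes. SRSF11 and CLK4 joined them with TMM and with upper-quartile factors. In both palbociclib comparisons the intervals lay below 0 for 25 genes (45.5%), beside 17.8% of all genes and 23.6% of those with at least 20 CPM, and above 0 for 4 genes (SRSF8, HNRNPM, SRPK1 and SRPK2), beside 15.9%.

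At 1.5-fold with library totals, a smaller share of these genes was called than of genes at large, in each comparison and direction. Indisulam against untreated was higher by that measure for 4 genes, U2AF1, HNRNPL, SNRNP70 and RBM25 (17.2% of all genes), and lower for none (14.2%). With TMM factors RBM25 alone was higher and SF3B3 was lower, and with upper-quartile factors RBM25 alone was called. Palbociclib against untreated was higher for SRSF6 and SNRNP70 (12.6% of all genes) and lower for SRSF4, HNRNPC, PTBP1 and SRRM1 (12.2%). The combination against untreated was higher for HNRNPM, SRPK1, SNRNP70 and RBM25 (23.1%) and lower for SF3A2, CLK2, LUC7L3 and RBM10 (19.4%). With TMM factors SRPK1 and SNRNP70 were no longer called and SF3B3 and SRRM2 were added to the lower genes, which left 2 higher (19.7% of all genes) and 6 lower (22.5%). Against palbociclib alone, the combination was higher for none (18.4%) and lower for SRSF6 and CLK2 (14.5%), joined by LUC7L3 with TMM factors. Against indisulam alone, it was higher for none (12.0%) and lower for 5 genes, SF3A2, SRSF4, SRRM2, CLK2 and RBM5. That is 9.09% of the 55, close to the 10.2% of all genes. Of these 5, SF3A2 and SRRM2 were called with upper-quartile factors. With TMM factors SF3A1 was added, which made 6 lower beside 10.8% of all genes, a share no longer smaller. No gene of the 55 passed 1.5-fold in both indisulam comparisons, either higher (10.4% of all genes) or lower (8.16%). In both palbociclib comparisons none was higher (5.23%) and 1, SRSF4, was lower (4.47%). Among the 8037 genes with at least 20 CPM the shares were smaller, from 6.36% to 18.4%, and for the combination against indisulam 7.80% were lower, beside 9.09% of the 55. Genes named from these counts and outside the rule given with the methods were chosen after their values were seen.

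RBM25, U2AF2, SNRNP70 and SRSF6 were above untreated by a log2 ratio of 0.52 or more with at least 1 single drug, while the combination fell short of the single drugs added up by 1.5-fold or more. Such a shortfall was seen in 5 of the 55 (9.09%), beside 9.64% of all compared genes. SRRM2, also among the 5, was at most 0.21 above untreated with a single drug. The 4 genes were thus picked by their values. The 250 bases upstream of their RefSeq start (GRCh38.p14) are printed 5′ to 3′ so that the start regions of these 4 genes can be set side by side. Capitals mark matches, on either strand, to any of the short motifs named after the sequences.
RBM25, chr14:73058284-73058533, plus strand: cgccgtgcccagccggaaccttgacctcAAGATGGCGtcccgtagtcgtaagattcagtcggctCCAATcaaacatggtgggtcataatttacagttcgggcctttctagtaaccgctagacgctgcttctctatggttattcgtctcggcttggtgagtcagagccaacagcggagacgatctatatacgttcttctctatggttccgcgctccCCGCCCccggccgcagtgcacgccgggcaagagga
U2AF2, chr19:55654785-55655034, plus strand: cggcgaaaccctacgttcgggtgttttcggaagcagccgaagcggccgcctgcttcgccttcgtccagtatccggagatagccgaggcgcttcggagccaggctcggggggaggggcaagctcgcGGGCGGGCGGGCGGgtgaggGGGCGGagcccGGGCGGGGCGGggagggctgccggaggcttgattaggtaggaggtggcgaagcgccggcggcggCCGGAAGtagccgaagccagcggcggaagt
SNRNP70, chr19:49085201-49085450, plus strand: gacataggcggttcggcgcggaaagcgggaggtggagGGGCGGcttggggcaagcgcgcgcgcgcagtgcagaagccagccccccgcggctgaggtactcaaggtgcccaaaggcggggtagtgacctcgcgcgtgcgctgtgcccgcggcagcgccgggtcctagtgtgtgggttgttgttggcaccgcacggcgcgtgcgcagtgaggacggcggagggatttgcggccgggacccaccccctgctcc
SRSF6, chr20:43457646-43457895, plus strand: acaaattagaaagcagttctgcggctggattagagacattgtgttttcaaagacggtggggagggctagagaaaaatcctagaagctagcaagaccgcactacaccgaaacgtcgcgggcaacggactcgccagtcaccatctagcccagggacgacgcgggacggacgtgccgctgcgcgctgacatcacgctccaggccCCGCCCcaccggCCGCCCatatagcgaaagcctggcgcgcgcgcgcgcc
The motifs searched were the ETS core CCGGAAG, the NRF1 core GCATGCGC, the cAMP response element TGACGTCA, the CCAAT box CCAAT, the GC box GGGCGG, the TATA box TATAAA, the YY1 core AAGATGGCG and the E2F core TTTCCCGC, each on both strands, and adjoining or overlapping matches merge in the capitals. RBM25 held a YY1 core, a CCAAT box and a GC box, U2AF2 held 6 GC boxes, 5 of them in overlapping runs, and an ETS core, SNRNP70 held 1 GC box, and SRSF6 held 2. RefSeq windows were found for 50 of the 55 genes, 69 windows in all. Of these, 56.5% held a GC box, beside 42.6% of all 35116 windows, and 18.8% held the ETS core, beside 8.52%. The NRF1 core was found in 6 windows (8.70% beside 2.63%), the E2F core in 4 (5.80% beside 1.39%) and the YY1 core in 1 (1.45% beside 0.652%). The CCAAT box was found in 31.9% beside 32.0%, the TATA box in 7.25% beside 10.7%, and the cAMP response element in 0 beside 1.65%. The 35116 windows were not limited to genes with reads in these libraries, and a gene with several windows counts several times. The median GC content was 64.4% in the windows of these genes and 58.0% in all windows. A match is a description of letters, and binding was not measured.

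RBM25, an RNA-binding protein tied to the U1 snRNP and to exon choice in the apoptosis regulator BCL2L1, had the widest range over the 4 libraries. Its level was 75.1 CPM untreated, 108 CPM with palbociclib, 165 CPM with indisulam and 152 CPM with the combination. All treated libraries were above the untreated one, and the libraries with indisulam were highest. Indisulam against untreated gave a log2 ratio of 1.14 (interval 1.03 to 1.24) and the combination against palbociclib 0.49 (0.40 to 0.59). Palbociclib against untreated gave 0.52 (0.40 to 0.64), and the combination lay 0.64 below the sum of the single drugs. An antisense gene, RBM25-AS1, overlaps it on the other strand, and whether strand was used in counting was not given in the sources used here. The other members of the group differed. RBM10, a regulator of exon skipping, had 76.1 CPM untreated, 57.1 CPM with palbociclib, 57.0 CPM with indisulam and 48.7 CPM with the combination, so that each treated library lay below the untreated one. Its paralog RBM5 had 146 CPM untreated, 146 CPM with palbociclib, 167 CPM with indisulam and 111 CPM with the combination, the last being lower than each of the others.

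**Figure D2:**
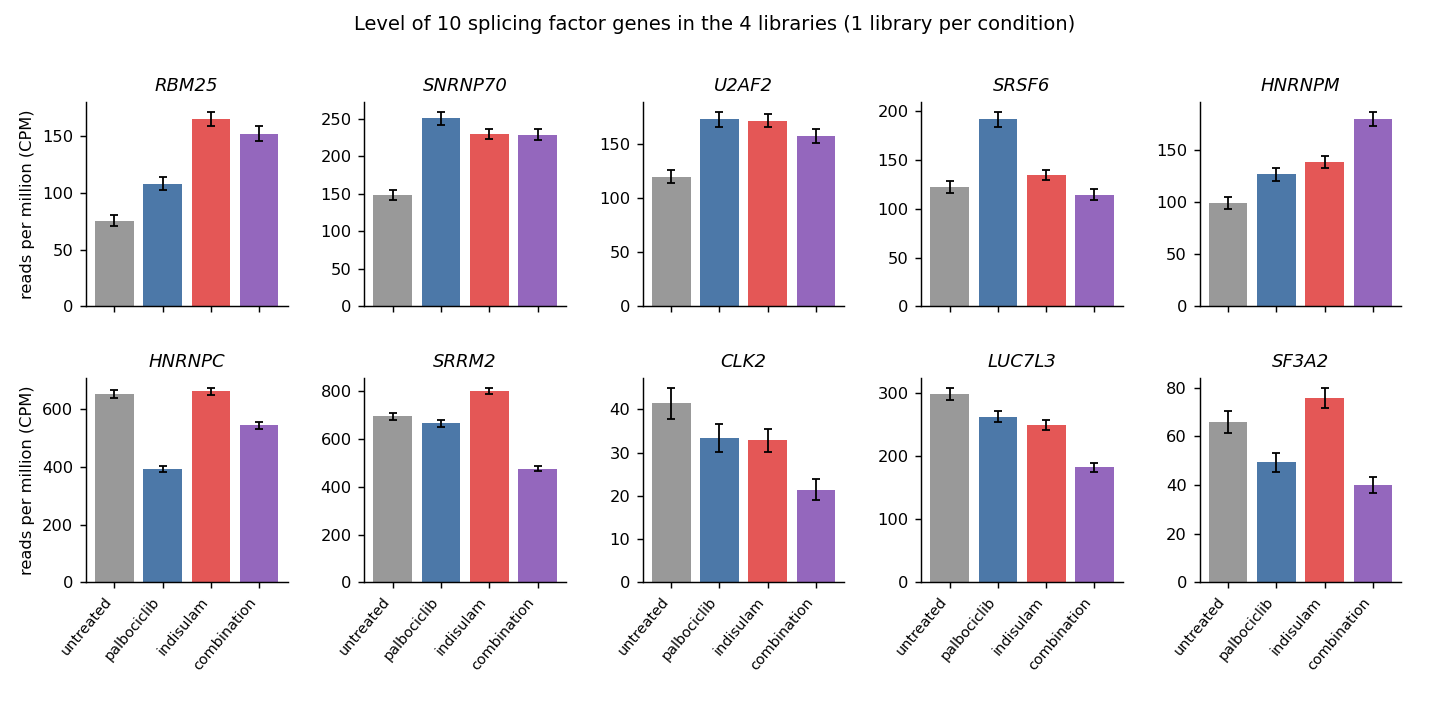
Bars give the level in CPM (vertical axis, from 0) of 10 genes in the 4 libraries, 1 library per condition, and error bars are 95% Poisson counting intervals. RBM25 runs from 75.1 CPM untreated to 165 CPM with indisulam, SNRNP70 lies higher in all 3 treated libraries, HNRNPC is lowest with palbociclib, and SRRM2, CLK2, LUC7L3 and SF3A2 are lowest with the combination.

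Factors that recognise the 3′ splice site and the branch point were mostly a little higher with indisulam alone, 11 of 14 being above 0, with a median log2 ratio of 0.21. In the combination against palbociclib 9 of 14 were above 0, with a median of 0.10, or 7 of 14 with a median of 0.00 with TMM scaling. The 11 of 14 (78.6%) stood beside 54.6% of all compared genes, and the 9 of 14 (64.3%) beside 54.9%. Intervals were above 0 in both comparisons for U2AF1, SF3A3, SF3B1, SF3B2, SF3B4 and RBM17, of which U2AF1 and SF3B1 remained with TMM scaling, and below 0 in both for SF3B3. SF3B1, the subunit that holds the branch point and is often mutated in cancers, had 528 CPM untreated, 420 CPM with palbociclib, 644 CPM with indisulam and 521 CPM with the combination. Indisulam gave log2 ratios of 0.28 (0.24 to 0.33) without palbociclib and 0.31 (0.26 to 0.36) on top of it, and palbociclib gave −0.33 (−0.38 to −0.28) against untreated.

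SF3B3, a scaffold subunit of the same SF3B complex, went the other way. It had 266 CPM untreated, 242 CPM with palbociclib, 186 CPM with indisulam and 183 CPM with the combination, the libraries with indisulam being the lowest. The log2 ratios were −0.51 (−0.58 to −0.44) without and −0.40 (−0.47 to −0.32) with palbociclib. Of the remaining SF3B subunits, SF3B2, SF3B4, SF3B5 and SF3B6 had log2 ratios from −0.02 to 0.42 for indisulam against untreated. The SF3A subunits were higher with indisulam alone by 0.09 to 0.20, and in the combination SF3A1 and SF3A2 were lower. SF3A2 had 65.9 CPM untreated, 49.4 CPM with palbociclib, 75.9 CPM with indisulam and 40.1 CPM with the combination, a log2 ratio of −0.92 (−1.06 to −0.78) for the combination against indisulam.

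U2AF2, the large subunit of U2AF that reads the polypyrimidine tract, was higher in all treated libraries, at 120 CPM untreated, 173 CPM with palbociclib, 172 CPM with indisulam and 158 CPM with the combination. The single drugs gave nearly equal log2 ratios of 0.53 (0.43 to 0.62) and 0.52 (0.43 to 0.61), and the combination 0.40 (0.30 to 0.49). Its small partner U2AF1, which reads the AG at the intron end, had 11.3 CPM untreated, 12.4 CPM with palbociclib, 17.2 CPM with indisulam and 16.4 CPM with the combination, from 142, 158, 288 and 235 reads. The log2 ratio of indisulam to untreated was 0.60 (0.32 to 0.89). U2AF1 was undercounted by an unknown amount. The gene lies at chr21:43092956-43107570, and GRCh38 carries a copy, LOC102724594, at chr21:6484623-6499248. Of the 10839 stretches of 65 bases in U2AF1 exons, 10026 (92.5%) occur in that copy, and reads at more than 1 place were not counted for a gene. SF1, which marks the branch point first, had 197, 186, 272 and 191 CPM in the same order of libraries, so that the indisulam library stood above the other 3. PUF60 and RBM17 ranged from 70.1 to 88.1 CPM and from 58.1 to 67.1 CPM.

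SR proteins were higher with indisulam alone in 12 of 13 cases, with a median log2 ratio of 0.21. With TMM scaling 11 of 13 were higher, SRSF10 having turned. With library totals 9 (69.2%) had intervals above 0, beside 36.9% of all compared genes and 42.7% of those with at least 20 CPM. None had an interval below 0, but SRSF11 did with TMM and with upper-quartile scaling. In the combination against palbociclib 10 of 13 were above 0 (8 of 13 with TMM scaling), with a median of 0.23 (0.13 with TMM scaling). With library totals the shares above 0, 92.3% and 76.9%, stood beside 54.6% and 54.9% of all compared genes. Intervals lay above 0 in both comparisons for SRSF1, SRSF3, SRSF4, SRSF7, TRA2A and TRA2B, of which SRSF4 and SRSF7 dropped out with TMM scaling. SRSF7, which also serves in RNA export, had the highest log2 ratio of the group for indisulam against untreated, with 79.2 CPM untreated, 84.5 CPM with palbociclib, 119 CPM with indisulam and 94.5 CPM with the combination. Its log2 ratio was 0.58 (0.47 to 0.69) without palbociclib and 0.16 (0.04 to 0.28) with it. SRSF3, a small SR protein and likewise an export adaptor, had 157 CPM untreated and with palbociclib, 220 CPM with indisulam and 227 CPM with the combination. Here the libraries with and without indisulam stood apart by a like amount, 0.49 (0.41 to 0.57) and 0.53 (0.45 to 0.61). TRA2A and TRA2B, sequence-specific exon activators, were higher with indisulam by 0.57 (0.43 to 0.71) and 0.45 (0.35 to 0.55).

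SRSF6 had 123 CPM untreated, 192 CPM with palbociclib, 135 CPM with indisulam and 114 CPM with the combination. The palbociclib library stood above the other 3. Palbociclib gave a log2 ratio of 0.65 (0.55 to 0.74) without indisulam and −0.24 (−0.33 to −0.15) with it, and the departure from additivity was −0.88 (−1.01 to −0.75). SRSF4, close to SRSF6 in domain layout, had 98.8 CPM untreated, 64.2 CPM with palbociclib, 114 CPM with indisulam and 75.2 CPM with the combination. Both libraries with palbociclib were lower, at log2 ratios of −0.62 (−0.75 to −0.49) and −0.60 (−0.71 to −0.49). SRSF11 was the SR protein below 0 with indisulam, at −0.03 (−0.10 to 0.05), and had 199 CPM untreated, 180 CPM with palbociclib, 196 CPM with indisulam and 150 CPM with the combination. SRSF5 likewise had its lowest level, 197 CPM, in the combination library and 224 to 263 CPM in the others. SRSF2 was above untreated in all 3 treated libraries, by 0.29 to 0.36, and SRSF8, at 29.4 to 39.1 CPM, was higher in both libraries with palbociclib. SRSF1, SRSF9 and SRSF10 differed from untreated by −0.24 to 0.17 in the treated libraries.

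Among the 7 groups, the 11 listed hnRNP genes, PTBP1 among them, were the group with every member above 0 in both indisulam comparisons. With indisulam against untreated 11 of 11 had log2 ratios above 0, from 0.02 (HNRNPC) to 0.63 (HNRNPL), although HNRNPC and PTBP1 turned below 0 with TMM and with upper-quartile scaling, HNRNPC to −0.05 with intervals that excluded 0. In the combination against palbociclib 11 of 11 had intervals above 0, from 0.17 (HNRNPF) to 0.56 (HNRNPA2B1), and the ratios stayed above 0 with both of those scalings. Intervals lay above 0 in that comparison for 37.3% of all compared genes and 42.9% of those with at least 20 CPM. The medians were 0.23 and 0.40, beside 0.06 and 0.07 over all compared genes, of which 54.6% and 54.9% were above 0. With palbociclib alone 8 of 11 were below 0, with a median of −0.31, while 48.2% of all compared genes were above 0. Summed over the group, the level was 3851 CPM untreated, 3099 CPM with palbociclib, 4484 CPM with indisulam and 4116 CPM with the combination. Other hnRNP genes were more mixed. Of 35 such genes compared, 24 (68.6%) were above 0 in indisulam against untreated, beside 54.6% of all compared genes. In the combination against palbociclib 20 (57.1%) were, beside 54.9%. Of the genes named HNRNP in that list, HNRNPA3, HNRNPDL, HNRNPH2, HNRNPH3, HNRNPLL and HNRNPR were above 0 in both comparisons. HNRNPA0 and HNRNPAB were above 0 with indisulam against untreated alone, and HNRNPUL1 and HNRNPUL2 were below 0 in both.

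HNRNPC, which packages nascent transcripts and competes with U2AF2 for uridine tracts, had 653 CPM untreated, 391 CPM with palbociclib, 661 CPM with indisulam and 544 CPM with the combination. The palbociclib library was the lowest, at a log2 ratio of −0.74 (−0.79 to −0.69), and the combination lay between it and the rest, 0.46 above the sum of the single drugs. PTBP1, a repressor of exons that neurons use, followed the same order with 294, 191, 303 and 269 CPM. HNRNPA1, a repressor of splice sites, had 657, 443, 756 and 605 CPM in that order, and HNRNPA2B1 581, 506, 741 and 746 CPM. For HNRNPA1 the annotation names 74 pseudogenes, and 7.73% of its 65-base exon stretches occur in them.

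HNRNPL, a regulator that binds CA repeats, had 104 CPM untreated, 118 CPM with palbociclib, 160 CPM with indisulam and 139 CPM with the combination, and the indisulam library was highest. Indisulam gave 0.63 (0.54 to 0.73) and the combination against palbociclib 0.24 (0.14 to 0.33). HNRNPM was among the members whose departure from additivity had an interval that included 0, and it had 99.2 CPM untreated, 127 CPM with palbociclib, 139 CPM with indisulam and 180 CPM with the combination. Its departure from additivity was 0.02 (−0.11 to 0.15), and the combination against untreated was 0.86 (0.76 to 0.96). HNRNPU and HNRNPK were also highest in the combination library, at 362 and 692 CPM, beside 278 and 535 CPM untreated. HNRNPD, HNRNPF and HNRNPH1 were lower with palbociclib alone, at log2 ratios of −0.52, −0.38 and −0.31, and higher with indisulam alone, at 0.23, 0.10 and 0.33.

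**Figure D3:**
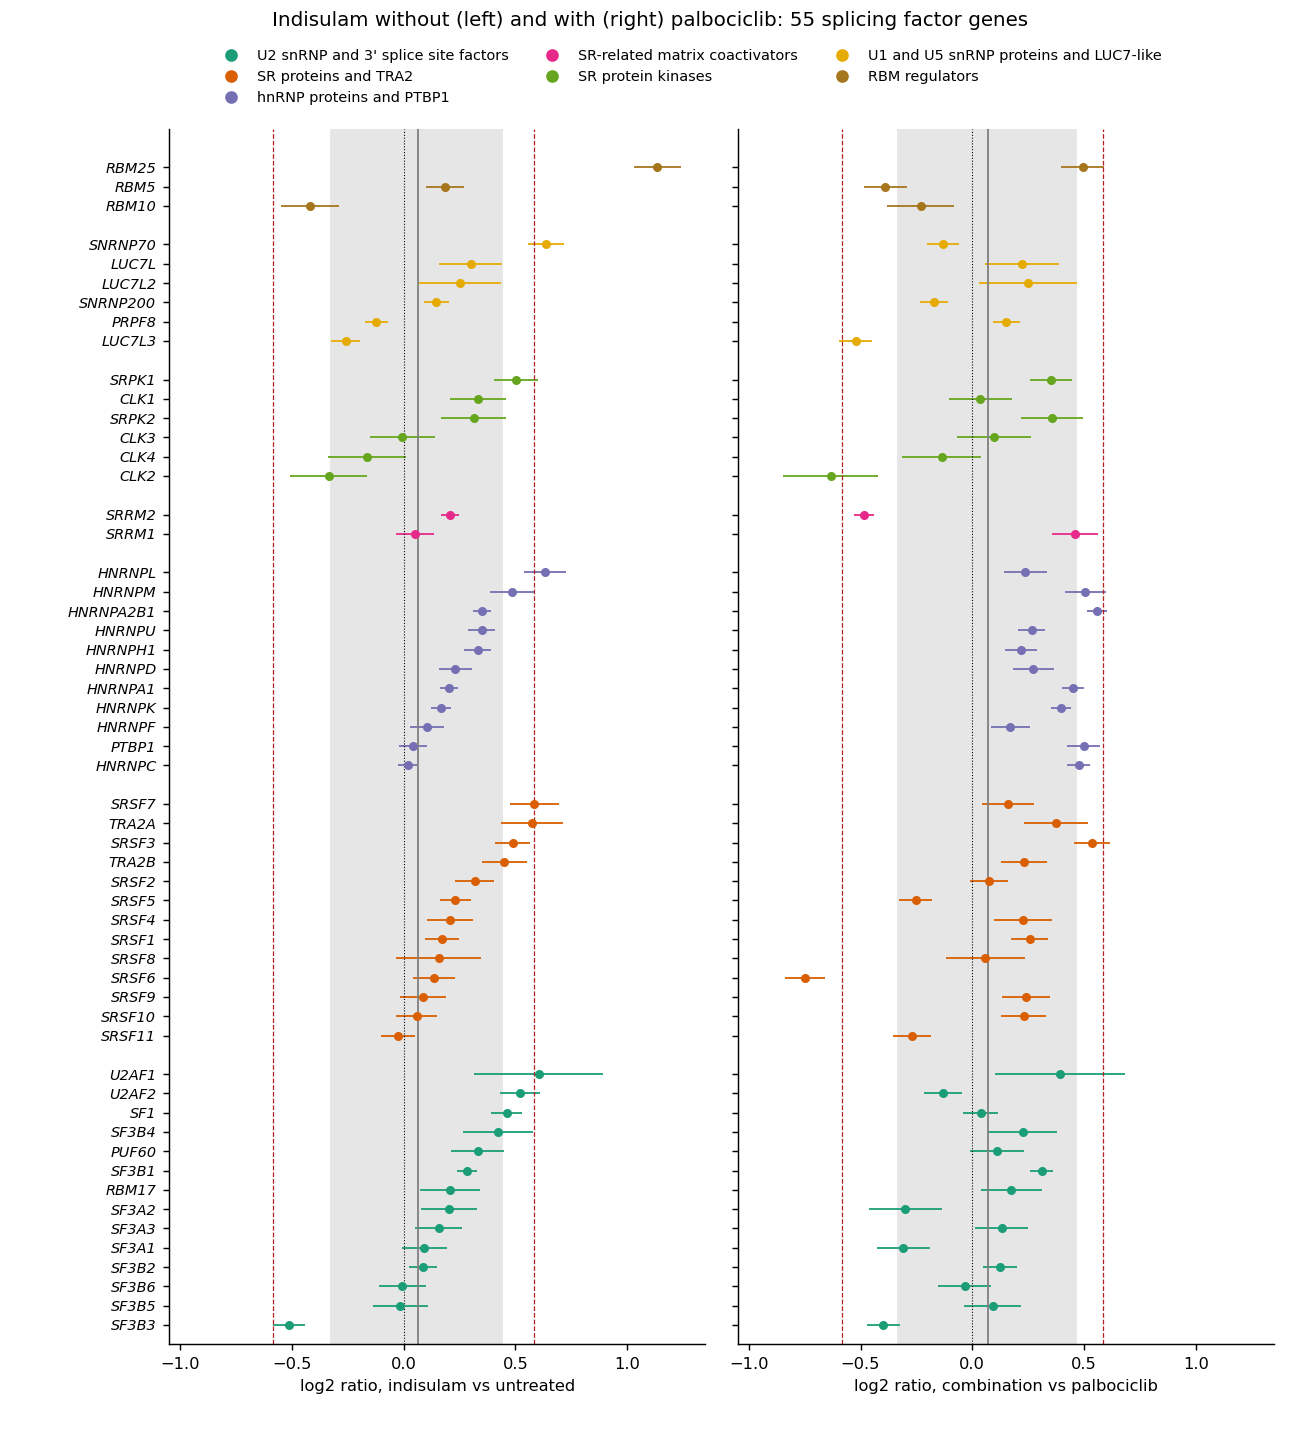
Points are the log2 ratios (horizontal axes) of the 55 genes (rows, colored by role) for indisulam against untreated on the left and for the combination against palbociclib on the right, with 95% Poisson counting intervals as bars, the middle 50% of all 14269 compared genes as a grey band around their median, and red dashed lines at 1.5-fold. All 11 hnRNP points on the right lie above 0, RBM25 is the farthest to the right on the left panel at 1.14, and SRSF6 at −0.75 and CLK2 at −0.63 lie farthest to the left on the right panel.

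The 2 matrix coactivators, scaffolds that bridge exon-bound SR proteins and the splicing machinery, went separate ways in the combination. SRRM2, a large protein of nuclear speckles, had 695 CPM untreated, 666 CPM with palbociclib, 802 CPM with indisulam and 476 CPM with the combination. The combination library was the lowest, with log2 ratios of −0.55 (−0.59 to −0.50) against untreated, −0.48 (−0.53 to −0.44) against palbociclib and −0.75 (−0.79 to −0.71) against indisulam. SRRM1 had 152 CPM untreated, 99.6 CPM with palbociclib, 157 CPM with indisulam and 137 CPM with the combination, the palbociclib library being the lowest. Its log2 ratio was −0.61 (−0.71 to −0.50) for palbociclib against untreated, and the combination lay 0.46 (0.36 to 0.56) above palbociclib.

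Among the kinases, the SRPK genes, whose products phosphorylate SR proteins in the cytoplasm, were higher in every treated library. SRPK1 had 99.0 CPM untreated, 121 CPM with palbociclib, 140 CPM with indisulam and 154 CPM with the combination, the last at a log2 ratio of 0.64 (0.54 to 0.74). SRPK2 had 48.6, 54.4, 60.4 and 69.8 CPM in the same order. The nuclear CLK kinases were on both sides of 0 for each single drug, and all 4 were below 0 in the combination against untreated, with intervals that excluded 0 for CLK2 and CLK3. CLK2 had 41.4 CPM untreated, 33.3 CPM with palbociclib, 32.8 CPM with indisulam and 21.4 CPM with the combination, so that the combination was the lowest. The combination against untreated was −0.95 (−1.15 to −0.74), short of 2-fold, and −1.04 with TMM factors, past it. CLK1 was highest with indisulam (82.2 CPM, beside 59.3 to 65.2 CPM in the others). CLK3 was lower in both libraries with palbociclib (41.4 and 44.3 CPM, beside 52.4 and 52.7 CPM), and CLK4 stayed between 34.3 and 38.9 CPM.

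Of the U1 and U5 proteins, SNRNP70, the U1-70K protein that contacts SR proteins at the 5′ splice site, was higher in every treated library to a like extent. It had 148 CPM untreated, 251 CPM with palbociclib, 230 CPM with indisulam and 229 CPM with the combination. The log2 ratios to untreated were 0.76 (0.68 to 0.84), 0.64 (0.56 to 0.72) and 0.63 (0.55 to 0.71), and the departure from additivity was −0.77 (−0.87 to −0.66). LUC7L3, a U1-associated factor, was lower in every treated library and lowest in the combination, with 300 CPM untreated, 263 CPM with palbociclib, 250 CPM with indisulam and 183 CPM with the combination. Its log2 ratio was −0.71 (−0.78 to −0.64) for the combination against untreated. Its paralogs LUC7L and LUC7L2, at 40.9 to 62.8 CPM and 22.7 to 36.4 CPM, were lower with palbociclib and higher with indisulam alone, by 0.30 (0.16 to 0.44) and 0.25 (0.07 to 0.44). Part of the LUC7L2 exons (22.9%) overlaps other genes on the same strand in GENCODE release 44. The same holds for parts of SRSF1 (32.7%), SRSF6 (13.4%) and HNRNPL (8.64%). Reads there would be set aside as ambiguous if the annotation used in counting, whose release is not given, held the same overlaps. PRPF8, the core of the catalytic center, had 443, 307, 407 and 341 CPM, and the helicase SNRNP200 had 353, 318, 391 and 283 CPM, in the order untreated, palbociclib, indisulam and combination. Against indisulam, the combination was below 0 for 6 of the 6 genes of the group, with a median of −0.41, although SNRNP70, at −0.01, turned above 0 with upper-quartile scaling. Among all compared genes, 48.9% were above 0 in that comparison.

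In the combination, 5 genes (9.09%) fell short of the single drugs added up by at least 1.5-fold, beside 9.64% of all compared genes and 7.58% of those with at least 20 CPM. They were SRSF6 (−0.88), SNRNP70 (−0.77), SRRM2 (−0.69), U2AF2 (−0.65) and RBM25 (−0.64). None exceeded the sum by 1.5-fold, beside 9.17% of all genes, and none departed by 2-fold, beside 7.77%. Among genes with at least 20 CPM these shares were 7.02% and 3.26%. The median departure was −0.08 over the 55 genes and 0.01 over all genes. For SNRNP70, U2AF2 and RBM25 both single drugs went with a higher level, for SRSF6 mainly palbociclib did, and for SRRM2 the combination library was the lowest. The departure shares the untreated library with each ratio it is made of, so that a low count there would enter all of them. These genes have between 943 and 8727 untreated reads.

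**Figure D4:**
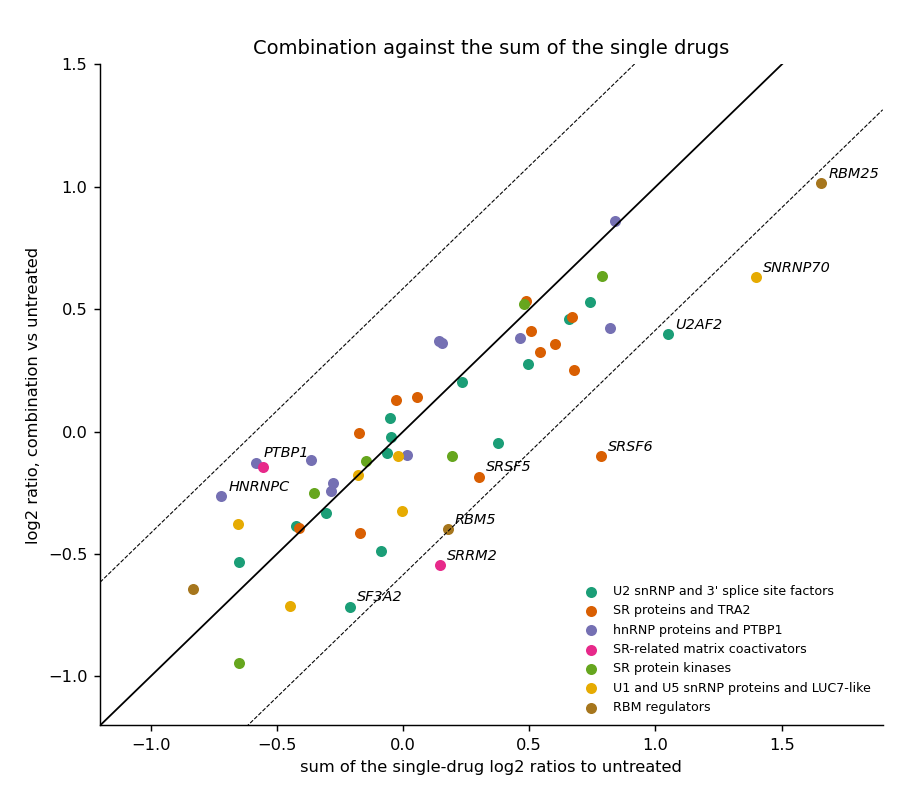
Each point is 1 of the 55 genes, with both single-drug log2 ratios to untreated added up on the horizontal axis and the log2 ratio of the combination to untreated on the vertical axis, colored by role. The solid line marks additivity and the dashed lines a departure of 1.5-fold, and the 5 genes beyond the lower dashed line are SRSF6, SNRNP70, SRRM2, U2AF2 and RBM25, while none lies beyond the upper one.

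RBM39, whose protein indisulam targets, is a splicing coactivator related to U2AF2 and not one of the 55 genes. Its transcript had 342 CPM untreated, 237 CPM with palbociclib, 376 CPM with indisulam and 305 CPM with the combination. Indisulam gave a log2 ratio of 0.13 (0.08 to 0.19), and the combination against palbociclib 0.37 (0.30 to 0.43). These are transcript levels, and RBM39 protein was not measured in these libraries. The paralog RBM23 had 59.3 to 65.4 CPM, with log2 ratios of 0.14 (0.01 to 0.27) and 0.00 (−0.13 to 0.14).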

How the data were processed

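RNA sequencing of 4 SUM159 libraries, 1 per condition, was analysed from the deposited tables, which hold counts of reads per Ensembl gene that the authors did not normalize. Per the labels, poly(A) RNA went through a stranded Illumina preparation after Trizol extraction, and the submitters' processing notes name TopHat2 2.1, HTSeq and GRCh38. How strand was set in counting, which annotation release was used and whether technical duplicates were pooled are not given in the sources used here. Reads in no gene (0.6147% to 0.694%), in more than 1 gene (2.413% to 2.627%) or at more than 1 place were kept out of library totals. An unstranded count would merge genes with antisense partners, and multi-mapped reads lower genes with close copies.

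Counts were scaled to library totals, as the study did by a relative total size factor, and log2 ratios were taken with a pseudocount of 1 for the 14269 genes with a mean of at least 1 CPM. Intervals (95%) and the floor of 3 counts cover counting error only. The members and gene lists were chosen with earlier results of these data known. Values in all libraries were to be given for members called at 2-fold, for those past 1.5-fold in both indisulam comparisons, for the highest and lowest with indisulam in each role, and for those with a near-identical copy, and other members named are additions made after their values were seen. Alternatives were TMM and upper-quartile factors (edgeR 4.0.16 in R 4.3.3), totals without mitochondrial genes, pseudocounts of 0.5 and 5, other filters, a 1.5-fold threshold, and leaving out 15 members with a named copy. The calculation was tested on simulated counts. Python 3.11.15, numpy 2.4.6, pandas 2.3.3 and matplotlib 3.10.9 were used. Gene models are from GENCODE release 44, and the upstream sequences are from RefSeq on GRCh38.p14.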

Additional observations from a re-analysis of the deposited data

Results flagged for a closer look

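For 9 of the 55 genes (16.4%, beside 6.31% of all compared genes) the separate indisulam comparisons had opposite signs and intervals that both excluded 0, and none of these differences was tested, since each condition has 1 library. The log2 ratios without and with palbociclib were 0.14 and −0.75 for SRSF6, 0.64 and −0.13 for SNRNP70, 0.52 and −0.13 for U2AF2, 0.21 and −0.48 for SRRM2, and 0.19 and −0.39 for RBM5. They were 0.20 and −0.30 for SF3A2, 0.23 and −0.25 for SRSF5, 0.15 and −0.17 for SNRNP200, and −0.12 and 0.15 for PRPF8. For palbociclib the same held for 4 genes (7.27%, beside 8.05% of all), likewise untested. Its ratios without and with indisulam were 0.65 and −0.24 for SRSF6, 0.53 and −0.12 for U2AF2, 0.52 and −0.12 for RBM25, and 0.19 and −0.21 for HNRNPL. Both counts used library totals, and neither was made under other scalings or for genes with at least 20 CPM. TMM factors shifted the indisulam ratios by −0.07 without palbociclib and −0.098 with it. These shifts are larger than the lower interval ends of SRSF6 without palbociclib (0.04) and of PRPF8 with it (0.09). HNRNPC, not among the 9, turned to −0.05 without palbociclib under TMM factors and stayed above 0 with it.

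Reads that aligned to no annotated gene lay outside the comparisons and were a larger share of each treated library than of the untreated one. The share was 0.694% with indisulam, 0.6707% with the combination and 0.6625% with palbociclib, beside 0.6147% untreated. Their part in the gene values was not tested.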

How the results depend on the processing

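With TMM factors the count of genes with intervals above 0 in both indisulam comparisons was 17 in place of 26, and the median of the combination against palbociclib was 0.0721 in place of 0.17. This count under other scalings was added after seeing the data. With upper-quartile factors the combination against untreated had 0 calls at 2-fold in place of 1, and with TMM factors its 1 call was CLK2 lower in place of RBM25 higher. The lists of genes called under other scalings were likewise made after seeing the data. The 1.5-fold threshold gave 6 calls for palbociclib and 4 for indisulam over untreated, and for the combination 8 over untreated, 2 over palbociclib and 5 over indisulam, with 5 departures from additivity. With TMM factors 41 genes in place of 45 were above 0 for indisulam over untreated and 34 in place of 39 for the combination over palbociclib. HNRNPC, indisulam over untreated, turned from 0.02 to −0.05 with TMM and with upper-quartile factors, with intervals that excluded 0, and no other of the 55 genes turned so under either. Leaving out a replicate could not be done, because each condition has 1 library. No paired analysis was possible because the groups have a single library each. TMM factors moved each log2 ratio of the combination to palbociclib by −0.098. Depth limits counting error only, and variation between cultures is unknown.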

Other observations

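The other splicing genes listed for comparison, 119 compared of 123, were mostly above 0 in each indisulam comparison. For 95 of them the sign was the same in both, and for 24 it was not, 10 of these with both intervals excluding 0. Their median log2 ratio was 0.22 for indisulam against untreated, with 86 above 0 and 33 below. It was 0.20 for the combination against palbociclib, with 84 above 0 and 35 below. The shares above 0, 72.3% and 70.6%, stood beside 54.6% and 54.9% of all compared genes. PTBP2, the paralog of PTBP1 that neurons use, had 20.9 CPM untreated, 15.2 CPM with palbociclib, 46.9 CPM with indisulam and 34.1 CPM with the combination. Its log2 ratio was 1.16 in both indisulam comparisons, with intervals of 0.96 to 1.36 and 0.92 to 1.40. DDX39B, a helicase of spliceosome assembly and RNA export, had 134, 125, 85.7 and 54.9 CPM in the same order, with log2 ratios of −0.65 (−0.75 to −0.54) and −1.18 (−1.30 to −1.06). SNRPB, a core Sm protein, was higher in both, by 0.69 and 0.59, and MAGOHB of the exon junction complex by 0.88 and 0.77. PRPF3, a U4/U6 protein, was higher by 1.00 without and 0.40 with palbociclib, and SNRNP48 of the minor spliceosome was lower, at −0.82 and −0.38. These genes were picked from their lists after their values were seen.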
